A study of Homo sapiens with 6 samples.

Results

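XRN2 was silenced with small interfering RNA (siXRN2) in LNCaP cells, an androgen-sensitive human cell line derived from a prostate cancer metastasis, and these cells were set against cells given a control siRNA (siCTRL, also labelled siSCR). All 1944 genes and all 4903 cleavage and polyadenylation sites listed in the tables were taken as members, and the comparison used 4 of the 6 libraries of the series, 2 siXRN2 and 2 siCTRL. The other pair of libraries came from cells in which Sam68, an RNA-binding protein, was silenced (siSAM68). All cells received 50 nM siRNA in 2 transfections and were treated for 48 hours. RNA was profiled by 3'READS, which sequences the ends of polyadenylated RNA next to the poly(A) tail, so each read reports both the gene and the position at which its RNA was cleaved.

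XRN2 is a nuclear 5′ to 3′ exoribonuclease. In the torpedo model of transcription termination it degrades the RNA left on RNA polymerase II after cleavage at the poly(A) site and helps to release the polymerase. Most human genes hold several poly(A) sites; use of a proximal site in the last exon shortens the 3′ untranslated region (3′ UTR), and use of an intronic site yields a truncated transcript.

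Replicates are numbered libraries, and nothing in the labels says that they came from separate cultures, so p-values measure the spread between libraries, which may be technical. The siXRN2 libraries held about 597909 and 1599537 reads over the listed genes and the siCTRL libraries about 244699 and 447347, as worked out from the deposited values. Depth therefore moved with the treatment, and its part in the results was not tested. The sources used here do not say how the listed genes and sites were chosen. The prostate epithelial genes KLK3, KLK2, TMPRSS2, FOLH1, STEAP2, SLC45A3 and HOXB13 were measured in every library, whereas KRT8 and KRT18 were not among the listed genes. None of 11 stromal, endothelial and immune markers and none of 4 neuroendocrine markers was among the listed genes. XRN2 is not among the listed genes, so its silencing was not checked at the level of expression. One of its cleavage sites, the F site at position 21370087 of chromosome 20 (hg19), took 7.69% and 0% of XRN2 reads in the siXRN2 libraries, against 9.09% and 24% in the siCTRL libraries. The other listed XRN2 site, L at position 21370463, was listed at 0 in all of these libraries. Usage is a share within the gene and checks no knockdown.

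Expression differed widely between siXRN2 and siCTRL cells. Of 1938 genes tested, 642 passed an adjusted p of 0.05 (33.1%), with 390 higher (20.1%) and 252 lower (13.0%) in siXRN2 cells (limma, Benjamini-Hochberg over all genes). Changes of at least 1.5-fold made up 587 of these calls (30.3% of the genes tested), and the siXRN2 and siCTRL libraries did not overlap in 1280 genes (66.0%). Levels are RPM, reads scaled by the authors to a fixed sequencing depth, brought to the same listed total in every library, and changes are on the log2(RPM + 1) scale. The median change over all genes was 0.06. The excess of higher genes lay in the low and middle range of expression. With genes in 4 equal bins by mean RPM, 93 were higher and 36 lower among the 485 genes of the lowest bin, whereas 97 were higher and 94 lower in the highest bin. Scaling by median-of-ratios gave 344 higher and 303 lower genes. Leaving out siCTRL replicate 1 cut the calls to 180, siCTRL replicate 2 to 370 and siXRN2 replicate 2 to 381. With each of these and siXRN2 replicate 1 left out in turn, 80 genes kept their call every time, 56 higher and 24 lower.

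The siSAM68 cells share the siCTRL libraries, so their values are given beside those of siXRN2 cells and not as a second result. In the direct contrast of siXRN2 with siSAM68, 2 of 1938 genes passed (0.103%), although 450 had an unadjusted p under 0.05. One was KHDRBS1, which encodes Sam68 itself, with 893 and 566 RPM in siXRN2 cells and 53.2 and 27.2 RPM in siSAM68 cells. The other was LOC644961, with 115 and 137 RPM in siXRN2 cells and 50.0 and 41.1 RPM in siSAM68 cells. LOC644961 was also called against siCTRL, but that call was lost without siCTRL replicate 1. The small number of calls does not show that the 2 knockdowns acted alike. No change against siCTRL described below in expression or in usage of a single site was shown to be particular to XRN2. The direct contrast for ratios and upstream shares is given at the end of the Results.

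Among well-expressed genes, those with a mean of at least 100 RPM, the largest rise was that of CYC1, the cytochrome c1 subunit of respiratory complex III. It measured 635 and 698 RPM in siXRN2 cells and 239 and 295 RPM in siCTRL cells, a log2 change of 1.32 ± 0.18 (SE, n = 2 each, adjusted p = 0.00244 in limma). PARK7, which encodes the redox-sensitive protein DJ-1, reached 1901 and 2074 RPM in siXRN2 cells, against 738 and 946 RPM in siCTRL cells. Neither gene had overlapping groups, and each omission of 1 library left both calls in place. RPL19, a protein of the large ribosomal subunit, had 612 and 579 RPM in siXRN2 cells and 265 and 273 RPM in siCTRL cells, and its siSAM68 libraries had 529 and 622 RPM. MDH1 (cytosolic malate dehydrogenase), GSTK1 (a glutathione transferase), FAM174B and MTRNR2L10 also rose and kept their calls, with log2 changes of 1.27, 1.26, 1.14 and 1.11. The minimum of 100 RPM for this group was chosen after the data had been seen.

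Among the well-expressed genes that fell, VHL, the substrate receptor of the ubiquitin ligase that degrades hypoxia-inducible factors, had 566 and 407 RPM in siXRN2 cells and 1005 and 951 RPM in siCTRL cells. Its log2 change was -1.02 ± 0.19 (SE, adjusted p = 0.00853 in limma). PCBP1, a poly(C)-binding protein of RNA metabolism, measured 92.1 and 81.9 RPM in siXRN2 cells and 193 RPM in both siCTRL libraries. PDXP (pyridoxal phosphatase), PDXDC1 and EPB41L4B fell by 1.01, 1.03 and 1.03 on the log2 scale and, like VHL and PCBP1, passed under each omission of 1 library. EPB41L4B also stood apart from siSAM68 cells in value, with 151 and 101 RPM in siXRN2 cells and 235 and 257 RPM in siSAM68 cells, but that difference did not pass the test (adjusted p = 0.0661 in limma). The largest fall in this range was that of EPB41, a membrane skeleton protein, with 155 and 66.0 RPM in siXRN2 cells and 293 and 237 RPM in siCTRL cells. It lost its call without siCTRL replicate 1 (adjusted p = 0.0783 in limma), as did ESD, S-formylglutathione hydrolase (0.0817).

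**Figure D1:**
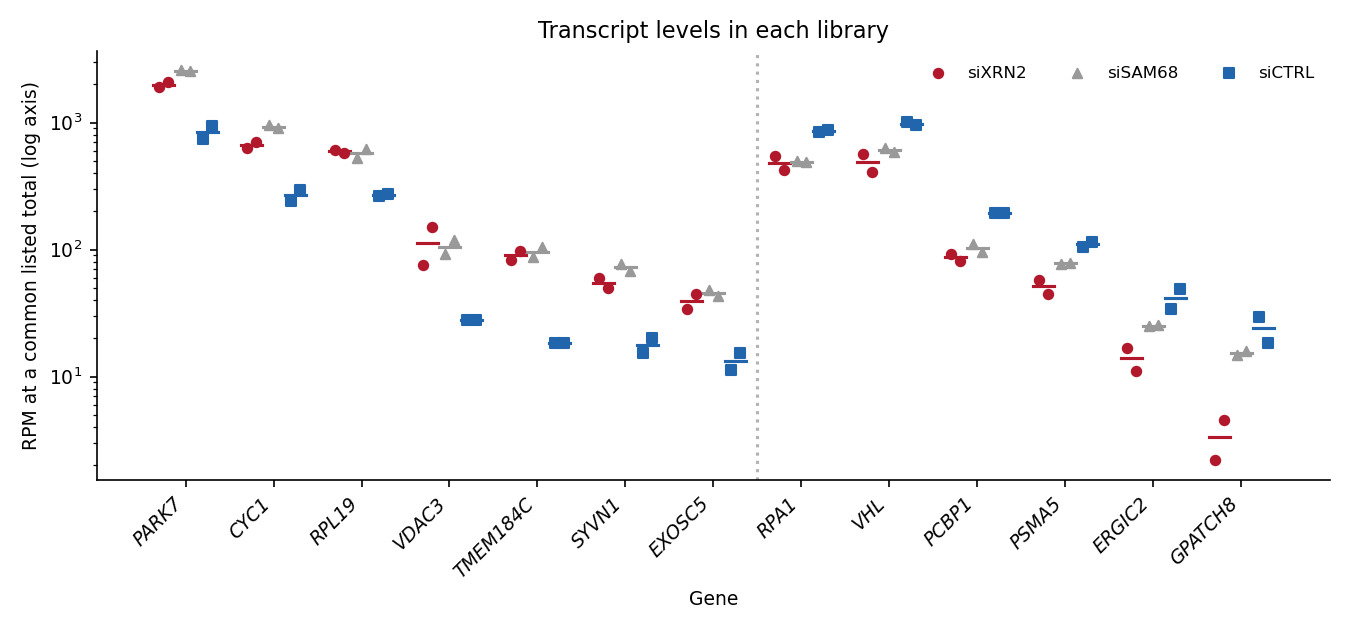
Points are the RPM of single libraries, at a common listed total and on a log axis, for genes called higher (left of the dotted line) and lower (right) in siXRN2 cells, and bars are means of 2 libraries. In each gene shown the siXRN2 and siCTRL libraries do not overlap, for example VHL with 566 and 407 RPM against 1005 and 951 RPM, and siSAM68 libraries are drawn between them.

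Of the 15 largest rises and 15 largest falls over all genes, all but that of EPB41 were in genes with a mean under 100 RPM. TMEM184C, a membrane protein gene, measured 82.9 and 97.0 RPM in siXRN2 cells, against 18.3 and 18.5 RPM in siCTRL cells, a log2 change of 2.22 ± 0.24 (SE, adjusted p = 0.000361 in limma). PALB2, the partner and localizer of BRCA2 in DNA repair, had the largest fitted rise, 2.52, at only 9.91 and 9.05 RPM in siXRN2 cells and 0 and 2.35 RPM in siCTRL cells. ESPL1, which encodes separase, the protease that cleaves cohesin at anaphase, had 6.24 and 10.1 RPM in siXRN2 cells and 0 and 1.57 RPM in siCTRL cells. F8 (coagulation factor VIII), TRPV1 (a cation channel) and GJB1 (a gap junction connexin) followed, with log2 changes of 2.00, 1.99 and 1.96. These 6 genes passed under each omission of 1 library, but only TMEM184C had more than 10 reads in every library. The other 9 of the 15 largest rises (ACOT9, ZNF500, CRTC2, WDR92, TMEM188, MED19, ZNF296, BLNK and CCDC18) each lost their call without siCTRL replicate 1 or 2 or 1 of the siXRN2 libraries, with an adjusted p of up to 0.0557 (ZNF500) to 0.178 (WDR92) in limma.

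GPATCH8, a G-patch domain gene, showed the largest fall. It had 2.20 and 4.53 RPM in siXRN2 cells and 29.5 and 18.5 RPM in siCTRL cells, a log2 change of -2.54 ± 0.41 (SE, adjusted p = 0.00484 in limma), and 14.8 and 15.8 RPM in siSAM68 cells. ERGIC2, a protein of the compartment between endoplasmic reticulum and Golgi, had 16.9 and 10.97 RPM in siXRN2 cells and 33.8 and 49.4 RPM in siCTRL cells. SLC39A14 (a zinc and iron importer) and MIS18A (needed to load the centromeric histone CENP-A) fell by 1.50 and 1.37 on the log2 scale. LOC146880 and TOP1P2 had nearly the same values in the siXRN2 and siCTRL libraries, 2.20 RPM for both in siXRN2 replicate 1 and 14.0 RPM for both in siCTRL replicate 1, but not in siSAM68 cells (4.08 and 3.12 RPM for LOC146880, 3.00 and 4.40 RPM for TOP1P2). Their reads may not be separable, and each is uncertain as a gene of its own. GPATCH8, ERGIC2, SLC39A14, MIS18A, LY75-CD302, LOC146880 and TOP1P2 passed under each omission, whereas TMEM69, CCDC86, SLCO5A1, GLMN, EPB41, PNP, ERCC6L and RTN2, the others of the 15 largest falls, did not. Over the omissions of siCTRL replicate 1, siCTRL replicate 2 and each siXRN2 library in turn, the adjusted p of these 8 reached 0.0508 (CCDC86) to 0.230 (RTN2) in limma.

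Of 24 cytosolic ribosomal protein genes measured (TPT1 and FAU counted with them), 12 rose and 1 fell, with a median log2 change of 0.49. Over all genes, 20.1% rose and 13.0% fell, with a median of 0.06. Among the 12, TPT1, translationally controlled tumour protein, had 2864 and 3747 RPM in siXRN2 cells and 1698 and 1853 RPM in siCTRL cells. RPL34 was the 1 gene that fell, with 63.8 and 61.9 RPM in siXRN2 cells and 111 and 86.3 RPM in siCTRL cells. The list depended on the libraries. Without siCTRL replicate 1 only 3 members rose and 0 fell, and RPL19 alone kept its call each time. TPT1 lost its call without siCTRL replicate 1 (adjusted p = 0.0574 in limma) and RPL34 without any 1 of the 4 (up to 0.230). Translation factors showed no such lean, with 2 of 21 higher and 3 lower, and of 9 tRNA synthetase genes 3 rose and 3 fell. The called shares of these 2 lists were 23.8% and 66.7%, against 33.1% of all genes. All 5 translation factor calls were lost without siCTRL replicate 1, as were the 3 rises among the synthetases, and without siCTRL replicate 2 none of the synthetases fell.

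Mitochondrial genes were called in both directions. Of 30 genes of the respiratory chain and ATP synthase, 10 rose and 5 fell (50%, against 33.1% of all genes). CYC1 and NDUFB4, a complex I subunit, passed under each omission. NDUFB4 measured 581 and 600.1 RPM in siXRN2 cells and 332 and 353 RPM in siCTRL cells. With siCTRL replicate 1 left out, 2 members of the list rose and 0 fell. Of 22 genes of the mitochondrial ribosome and its factors, 7 rose and 4 fell (50%), with MRPL49 (log2 change 1.15) and MRPS21 (0.98) keeping their calls. Without siCTRL replicate 1 the count was 2 higher and 1 lower. MRPL51, which fell to 1173 and 1251 RPM in siXRN2 cells, against 1940.2 and 1733 RPM in siCTRL cells, lost its call without that library (0.114). Of 21 genes for mitochondrial import and channels, 5 rose and 2 fell (33.3%, the share of all genes), or 2 and 1 without siCTRL replicate 1. VDAC3, a channel of the outer membrane, had 75.6 and 151 RPM in siXRN2 cells and 28.1 and 27.7 RPM in siCTRL cells, a log2 change of 1.90 ± 0.29 (SE, adjusted p = 0.00401 in limma). SLC25A24, a carrier of ATP-Mg and phosphate, fell to 13.9 and 12.1 RPM in siXRN2 cells, against 28.1 and 33.8 RPM in siCTRL cells, while siSAM68 cells had 31.8 and 38.5 RPM. Its difference from siSAM68 cells did not pass (0.0741).

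In central metabolism, 6 of 13 genes listed under the citric acid cycle and fatty acid oxidation rose and 1 fell (53.8%, against 33.1% of all genes). MDH1 and ECI1 kept their calls, but MDH1 encodes the cytosolic malate dehydrogenase and is only counted with this list. ECI1, an isomerase of fatty acid oxidation, measured 556 and 661 RPM in siXRN2 cells and 351 and 273 RPM in siCTRL cells. Of 17 redox defence genes, 5 rose and 2 fell (41.2%). PARK7 and GSTK1, described above, were among those that rose. Of the 3 glycolysis genes measured, ALDOC (an aldolase) and GAPDH rose. ALDOC kept its call each time, at 95.8 and 107 RPM in siXRN2 cells and 39.5 and 53.1 RPM in siCTRL cells. Without siCTRL replicate 1, the counts of genes that rose were 3 for the citric acid cycle list, 3 for the redox list and 1 for glycolysis. Of 10 sterol and fatty acid synthesis genes, DHCR7 rose and CYP51A1 fell (20%). GAPDH, DHCR7 and CYP51A1 lost their calls without siCTRL replicate 1 (adjusted p up to 0.0703, 0.101 and 0.199 over the omissions in limma), as did both redox genes that fell.

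Ubiquitin conjugation genes moved in both directions. Of 22 measured, 10 rose and 6 fell, 72.7% against 33.1% of all genes. Without siCTRL replicate 1 these counts were 1 and 0, the 1 being UFD1L, a cofactor that brings ubiquitinated proteins to the VCP segregase. UFD1L had 82.9 and 176 RPM in siXRN2 cells and 41.0 and 40.9 RPM in siCTRL cells. Of 12 proteasome genes, 3 rose and 2 fell (0 and 1 without siCTRL replicate 1). PSMA5, an alpha subunit of the 20S core, fell to 57.6 and 44.9 RPM in siXRN2 cells, against 106 and 115 RPM in siCTRL cells, and kept its call each time. The ER-stress list had 1 gene higher and 3 lower of 15, with 0 lower when siCTRL replicate 2 was left out. The 1 was SYVN1, the ubiquitin ligase HRD1 of ER-associated degradation, with 59.4 and 49.5 RPM in siXRN2 cells and 15.5 and 20.1 RPM in siCTRL cells, which kept its call. Of 18 chaperone genes, 4 rose and 2 fell, and all 6 calls were lost without siCTRL replicate 1. Of 46 genes of vesicle coats, SNAREs and Rab GTPases, 6 rose and 4 fell (21.7%), or 2 and 0 without siCTRL replicate 1. TOM1L2, an adaptor of endosomal sorting, was at 120.4 and 120.2 RPM in siXRN2 cells and 57.9 and 35.4 RPM in siCTRL cells. The called shares of the proteasome, ER-stress and chaperone lists were 41.7%, 26.7% and 33.3%, against 33.1% of all genes.

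RNA-processing genes, the machinery in which XRN2 works, showed changes on both sides. Among 6 genes of exonucleases and termination factors, 2 rose and 2 fell (66.7%, against 33.1% of all genes). EXOSC5, a subunit of the RNA exosome, had 34.1 and 44.3 RPM in siXRN2 cells and 11.2 and 15.4 RPM in siCTRL cells, a log2 change of 1.50 ± 0.30 (SE, adjusted p = 0.00853 in limma), and kept its call each time. UPF1, the helicase of nonsense-mediated decay, rose by 0.90. RPRD1B, which binds the polymerase II tail, and EDC4, a scaffold of mRNA decapping, fell by 0.90 and 0.73 on the log2 scale. UPF1 lost its call without siCTRL replicate 1 or siXRN2 replicate 2, RPRD1B without siCTRL replicate 2, and EDC4 without either siCTRL library or siXRN2 replicate 2 (adjusted p up to 0.139, 0.136 and 0.133 in limma). Of 4 cleavage and polyadenylation factor genes measured, CPSF1, a subunit of the complex that binds the AATAAA signal, was higher, and CSTF3, which belongs to the complex that binds downstream of the site, was lower, as was PPP1CA, a phosphatase subunit. The called share of this list of 4 was 75%, against 33.1% of all genes. CSTF3 had 105 and 110.0 RPM in siXRN2 cells and 156 and 196 RPM in siCTRL cells. All 3 calls were lost without siCTRL replicate 2 (adjusted p up to 0.194 for CPSF1, 0.105 for CSTF3 and 0.169 for PPP1CA over the libraries left out).

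Among 40 spliceosome and splicing regulator genes, 7 rose and 11 fell (45% called, against 33.1% of all genes), with a median log2 change of -0.01, whose sign depended on the scaling. PCBP1 alone kept its call each time. HNRNPC, an hnRNP that binds uridine tracts, had 678 and 629 RPM in siXRN2 cells and 935 and 1119 RPM in siCTRL cells. ELAVL1, the RNA-stabilizing protein HuR, had 691 and 717 RPM in siXRN2 cells and 1004 and 1219.8 RPM in siCTRL cells. Both lost their calls without siCTRL replicate 2 (adjusted p = 0.0873 and 0.0912 in limma). DDX17, an RNA helicase, rose by 0.68 and lost its call without siCTRL replicate 1 (0.157). With that library left out, 0 members of the list rose and 3 fell. Of 15 genes of RNA polymerase II and elongation, 1 rose and 1 fell (13.3%), and both were lost without siCTRL replicate 1. Among 26 listed noncoding RNA genes, 6 rose and 3 fell, and 1 rose without siXRN2 replicate 2. MALAT1 was at 172 and 169.7 RPM in siXRN2 cells and 107 and 129 RPM in siCTRL cells and lost its call without any 1 of the 4 libraries (up to 0.214).

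Genes of the G2/M phase were called about as often as all genes. Of 19 measured, 6 rose and 1 fell (36.8%, against 33.1% of all genes), with a median log2 change of 0.49, and none of the 7 passed under all 4 omissions. Median-of-ratios scaling gave 3 higher and 1 lower. CCNB1, cyclin B1, had 403 and 377 RPM in siXRN2 cells and 252 and 294 RPM in siCTRL cells, and lost its call without either siCTRL library (adjusted p up to 0.198 in limma). CCNB2, cyclin B2, was the gene that fell, with 220.2 and 179 RPM in siXRN2 cells and 289 and 363 RPM in siCTRL cells, a call lost without siCTRL replicate 2 (0.112). With siCTRL replicate 1 left out, 1 member of the list rose. Among 23 DNA replication genes, 3 rose and 2 fell, with 0 higher when siXRN2 replicate 2 was left out. RPA1, the large subunit of the single-strand DNA binding complex RPA, fell to 549 and 419.8 RPM in siXRN2 cells, against 842 and 872 RPM in siCTRL cells, and kept its call each time. The called share was 21.7% for DNA replication, 10% for CDK inhibitor and p53 target genes and 55.6% for DNA repair, against 33.1% of all genes. Of 10 CDK inhibitor and p53 target genes, 0 rose and 1 fell, a call lost without siCTRL replicate 1. Of 9 DNA repair genes 3 rose and 2 fell, or 1 and 1 without siCTRL replicate 1.

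Androgen-responsive genes mostly did not pass the test. Of 32 measured, KCNN2 rose and ZBTB16 fell (6.25%, against 33.1% of all genes), and KCNN2 lost its call without siCTRL replicate 1 or siXRN2 replicate 1 and ZBTB16 without siCTRL replicate 2 or siXRN2 replicate 2 (adjusted p up to 0.272 and 0.217 in limma). Across the omissions 0 to 3 members were higher and 0 to 6 lower. KLK3, which encodes prostate-specific antigen, had 1208 and 778 RPM in siXRN2 cells and 1439 and 1085 RPM in siCTRL cells (adjusted p = 0.333 in limma). Transporter genes of the SLC and ABC families passed in 5 of 28 cases, 2 higher and 3 lower, with 0 higher without siXRN2 replicate 2 and 1 lower without siCTRL replicate 1. The called share of these transporters was 17.9%, against 33.1% of all genes. Of 33 kinase, phosphatase and insulin-IGF signalling genes, 10 rose and 6 fell (48.5%). NRAS, a small GTPase, had 124 and 101 RPM in siXRN2 cells and 199.9 and 216 RPM in siCTRL cells, and SMEK1, a regulatory subunit of protein phosphatase 4, had 72.7 and 38.8 RPM in siXRN2 cells and 138 and 136 RPM in siCTRL cells. MAP3K3, a kinase upstream of MAP kinases, rose by 1.65. These 3 kept their calls each time, and without siCTRL replicate 1 the list had 2 higher and 2 lower.

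The remaining lists gave mixed counts. The called share was 41.7% for cytoskeleton, 31.6% for chromatin remodelling and Mediator and 25% for lysosome genes, against 33.1% of all genes. It was 34.6% for the noncoding RNA genes given above. Of 39 zinc finger genes, 8 rose and 5 fell, near the share of all genes, or 4 and 1 without siXRN2 replicate 2, and ZNF513 (1.55) kept its call each time. Cytoskeleton genes had 3 higher and 7 lower of 24, chromatin remodelling and Mediator genes 3 and 3 of 19, and lysosome genes 3 and 0 of 12. Without siCTRL replicate 1, no gene of these 3 lists rose and 2 cytoskeleton genes fell. H2AFJ was the 1 of 5 histone genes that passed, and it fell. IFI6 rose and IFI44 fell among 5 interferon response genes. Of 7 G1/S genes, CDK2 rose and E2F3 fell. These 5 genes lost their calls without siCTRL replicate 1 or 2 or siXRN2 replicate 2 (adjusted p of 0.186 for IFI6 and up to 0.343 for IFI44 in limma). Apart from ZNF513, EPB41L4B of the cytoskeleton list and a noncoding RNA gene that fell, no called member of these lists passed under all 4 omissions.

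**Figure D2:**
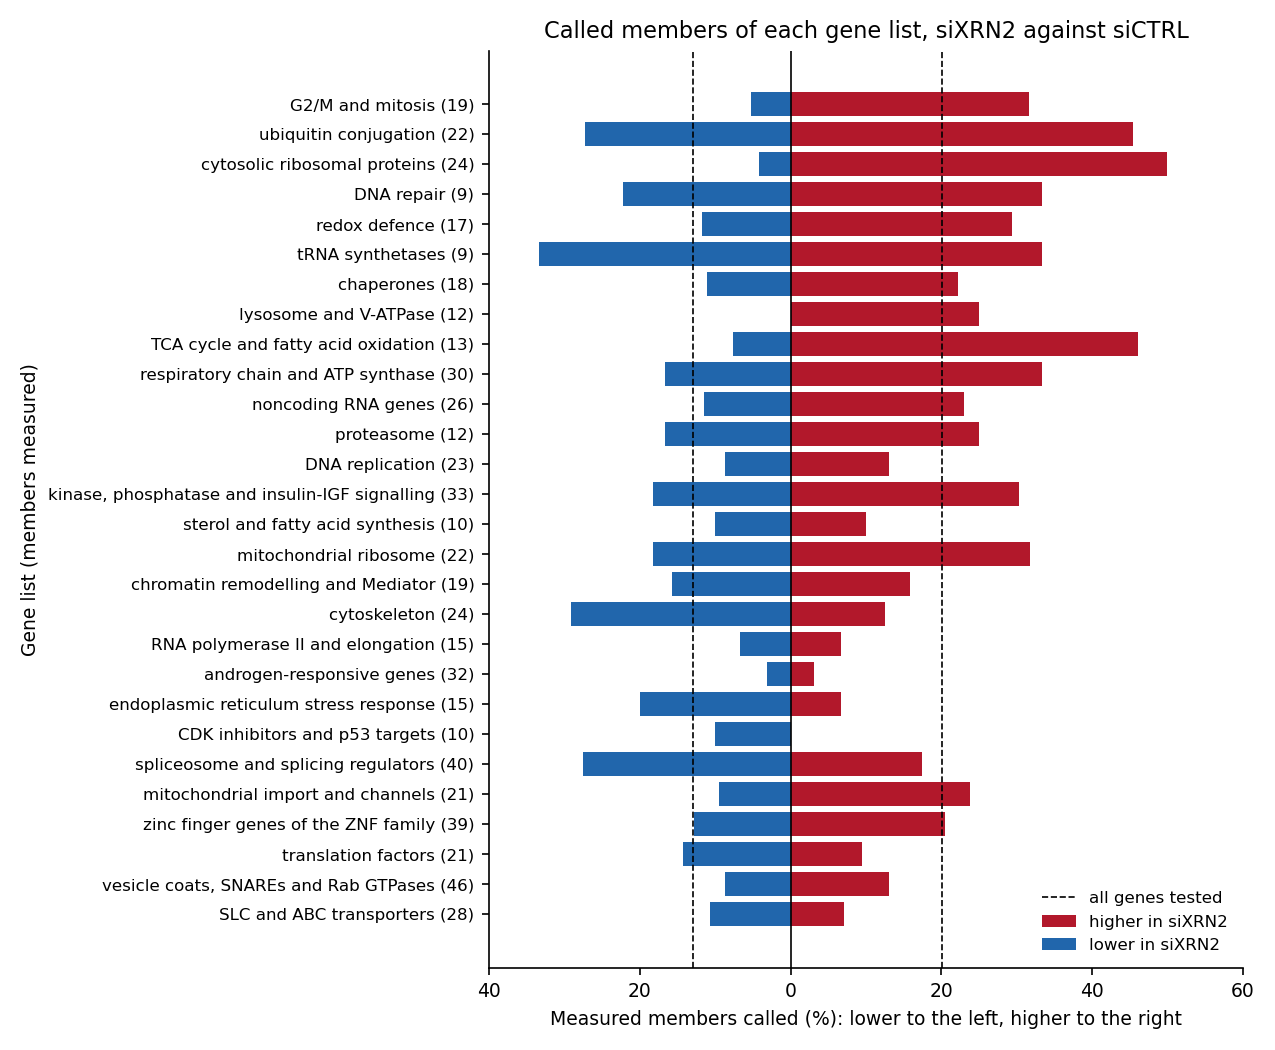
Bars give the share of measured members (%) of each list with at least 9 measured genes that was called higher (right) or lower (left) in siXRN2 cells, ordered by median log2 change, and dashed lines mark the shares over all genes, 20.1% higher and 13.0% lower. Cytosolic ribosomal proteins reach the highest share of higher genes (12 of 24), and the androgen-responsive genes have 1 higher and 1 lower of 32.

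The second readout was usage, the percentage of a gene's reads that fell on each of its sites. Site classes are given as letters that the sources used here do not define; they are read as first (F), middle (M), last (L) or single (S) site of the last exon, intronic (Ic and Is) and upstream exonic (E). Of 4866 sites tested on the log2(percent + 1) scale, 252 passed (5.18%), with 184 gained (3.78%) and 68 lost (1.40%), while the libraries of the 2 groups did not overlap at 3423 sites (70.3%). In 125 of the 184 gained sites, both siCTRL libraries were at 0, and sites at 0 numbered 530 and 196 in the siXRN2 libraries and 797 and 544 in the siCTRL libraries. No site passed in a fit of siXRN2 and siCTRL libraries alone, or without either siXRN2 library, although 1875 had an unadjusted p under 0.05 in the fit of all 6 libraries. Single site calls over the whole table are therefore not stable.

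The sizes of the changes differed by class of site. The median change was 2.89 points for L sites and 2.73 points for S sites, whereas it was -3.03 points for F sites, -4.18 points for Ic sites and -2.67 points for Is sites. M sites had a median change of -0.91 points. Usage was higher in siXRN2 cells at 56.3% of L sites and 43.2% of F sites. Sites of a gene divide the same reads, so these shares are not independent of one another, and no test was made between classes. The listed sites need not hold all reads of a gene, as in XRN2. In 348 sites of 199 genes with at least 50 reads in every siXRN2 and siCTRL library, a subset chosen after the data had been seen, the medians were 3.22 points for 123 L sites and -2.87 points for 107 F sites. By signal, the median over these sites was 2.61 points at the 216 sites with AATAAA, -4.21 points at the 52 with ATTAAA and -8.05 points at the 12 without a recognised signal. It was 1.535 points at the 62 sites labelled with another signal and -7.50 points at the 6 labelled A-rich. Over all sites tested, the medians were 0.34 points for AATAAA, -0.54 points for ATTAAA and -2.925 points for another signal. They were -4.935 points for A-rich sites and -5.035 points for sites without a signal.

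**Figure D3:**
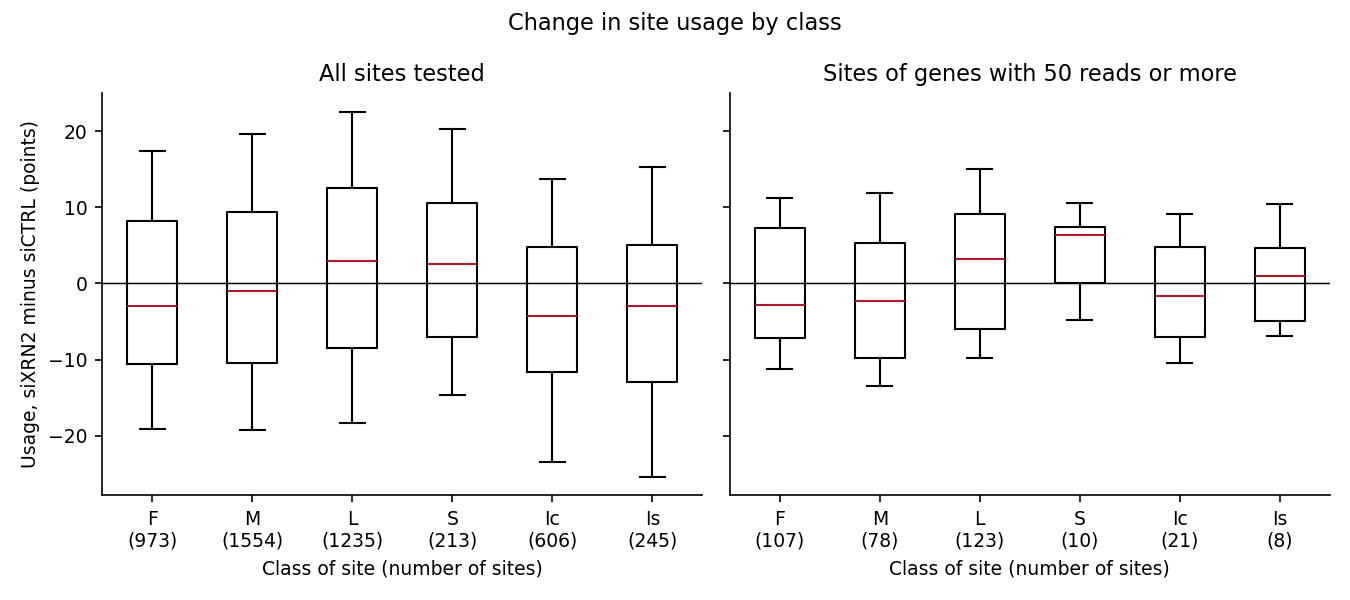
Boxes show quartiles, red lines medians and whiskers the 10th and 90th percentiles of the change in usage (points, siXRN2 minus siCTRL) by class of site, for all sites tested that have a value in both groups and for sites of genes with 50 reads or more. The medians of L and S sites lie above 0 and those of F, M and Ic sites below it in both panels.

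The largest called shifts over the whole table included many sites at 0 in both libraries of a group. FOXJ2, a forkhead transcription factor, used its L site in 66.67% and 88.89% of reads in siXRN2 cells, against 0% in both siCTRL libraries. EXOG, a mitochondrial endonuclease, used an M site in 26.53% and 18.05% in siXRN2 cells, against 71.43% and 78.57% in siCTRL cells, and siSAM68 cells had 55.00% and 57.50%. Among RNA-processing genes, 0 of 88 sites of 58 spliceosome genes and 0 of 10 sites of 5 cleavage and polyadenylation factor genes passed over the whole table. Sites of these lists that were called over the genes with at least 50 reads are given below. Over all sites tested 5.18% passed, and neither these counts nor those that follow were tested against that share. Of 32 sites of 21 exonuclease and termination genes 1 passed, an Ic site of UPF3A, a factor of nonsense-mediated decay, at 0% in both siXRN2 libraries and at 20.00% and 7.69% in siCTRL cells. TCEA1, the elongation factor TFIIS that rescues stalled polymerase II, had the 1 called site of 35 in the polymerase list, an M site at 31.25% and 20.48% in siXRN2 cells and 0% in both siCTRL libraries. Of 27 sites of DNA replication genes, 3 were gained (in MCM10, MCM8 and MCMBP) and 1 was lost. The lost one was an M site of ORC2, a subunit of the origin recognition complex, at 57.69% and 54.90% in siXRN2 cells and 83.33% and 79.31% in siCTRL cells. All of these calls were lost without siXRN2 replicate 1 or without siXRN2 replicate 2, when no site of the table passed.

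In genes with at least 50 reads, 166 of 348 sites passed with p adjusted over those sites (47.7%), 97 gained and 69 lost. This count fell to 9 without siXRN2 replicate 2, to 70 without siCTRL replicate 1 and to 79 without siXRN2 replicate 1. Of the 166, 8 passed under each omission of 1 library, and 6 of these also passed over all 4866 sites. Of these 6, the sites of MALAT1, PDIA6, SCARB2 and MRPS18C are described here. Their calls held under each omission only with p adjusted over the 348 sites. Over the whole table they were lost without siXRN2 replicate 1 and without siXRN2 replicate 2.

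MALAT1, a long noncoding RNA of nuclear speckles, ended at the M site at position 65271101 of chromosome 11 (hg19, plus strand) in 69.23% and 71.19% of its reads in siXRN2 cells, against 40.79% and 42.86% in siCTRL cells. The change was 0.73 ± 0.08 on the log2 scale (SE, n = 2 each, adjusted p = 0.0240 in limma over the whole table). The groups did not overlap, and the siSAM68 libraries had 74.86% and 72.01% at this site.

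PDIA6, a protein disulfide isomerase of the endoplasmic reticulum, shifted from its F site (position 10923987 of chromosome 2, minus strand) to its L site (10923517), 470 bases downstream. The L site took 31.31% and 36.40% of reads in siXRN2 cells and 11.75% and 12.97% in siCTRL cells (adjusted p = 0.0449 in limma). SCARB2, a lysosomal membrane receptor, shifted the same way, with 66.87% and 62.55% at the L site (position 77079890 of chromosome 4, minus strand) in siXRN2 cells and 45.05% and 41.18% in siCTRL cells (0.0467). MRPS18C, a protein of the small mitochondrial ribosomal subunit, moved in the other direction. Its F site (position 84382390 of chromosome 4, plus strand) took 76.44% and 74.59% in siXRN2 cells and 56.25% and 52.29% in siCTRL cells (0.0430). The expression of PDIA6, SCARB2 and MRPS18C did not pass the test, with log2 changes of -0.06, 0.49 and 0.23 (adjusted p = 0.814, 0.0615 and 0.394 in limma).

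The end sequences of PDIA6, MRPS18C, SCARB2 and GSPT1 are shown because both sites of each pair carry the same signal, AATAAA. A shift between the sites of a pair is then not one between signal classes. This does not cover other sites of these genes, such as an M site of GSPT1 that was called over the genes with at least 50 reads. Sequences are from GENCODE v29 transcripts (GRCh38), whose ends were matched to the site pairs by gene, strand and spacing. A match also required the listed signal near the end of both transcripts, so the signals in capitals are not an independent finding. For PDIA6, MRPS18C and GSPT1, 2, 3 and 3 pairs of ends matched, and a pair closest in spacing is shown. The spacing of the transcript ends is that of the site table for PDIA6 (470 bases), MRPS18C (186 bases) and GSPT1 (4551 bases), and 2719 against 2715 bases for SCARB2. The stretch shown for the MRPS18C L site stops 1 base before its transcript end, so that the signal lies within the 30 bases. Each is 30 bases of the RNA strand, 5′ to 3′, written as DNA with the signal in capitals.
PDIA6 F, chr2:10783861-10783890, minus strand: attaaagAATAAAatattttggacaatgcc
PDIA6 L, chr2:10783391-10783420, minus strand: acttaaaaaAATAAAtacaactgtcactaa
MRPS18C F, chr4:83461208-83461237, plus strand: gttaccactAATAAActtattttacagtaa
MRPS18C L, chr4:83461393-83461422, plus strand: AATAAAagtggttctgtgtgattgtcattt
SCARB2 F, chr4:76161452-76161481, minus strand: gcaagtatttAATAAAcccttgtatagtaa
SCARB2 L, chr4:76158733-76158762, minus strand: ttAATAAAaaaccactttatataaaattgc
GSPT1 F, chr16:11872679-11872708, minus strand: taccatgttAATAAAatattcaatttgaaa
GSPT1 L, chr16:11868128-11868157, minus strand: acAATAAAagttgtcatcttcccttttgaa

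GSPT1, the translation termination factor eRF3a, used its F site in 48.90% and 59.18% of reads in siXRN2 cells and 20.75% and 34.27% in siCTRL cells. This call (adjusted p = 0.0228 in limma over the genes with at least 50 reads, 0.0870 over the whole table) was lost without siXRN2 replicate 2 (0.0861). Also called over that subset only were 2 sites that passed under each omission. The M site of GINS2, a subunit of the replicative helicase, fell to 9.68% and 18.36% in siXRN2 cells, against 32.08% and 43.30% in siCTRL cells. The Ic site of RPL34 fell to 59.46% and 65.51% in siXRN2 cells, against 77.22% and 82.14% in siCTRL cells, and the expression of RPL34 fell as well, as given above. In the RNA-processing lists, sites of SRSF1, ESRP2, PRPF4B, SF3B3 and CSTF3 were called over that subset only. So were sites of ELL2, GTF2F1 and POLR2K in the polymerase list. None of these calls held under every omission. The S site of CSTF3 took 11.48% and 12.92% in siXRN2 cells and 3.6% and 6.67% in siCTRL cells. BIRC5, which encodes the mitotic protein survivin, used an M site in 70.50% and 66.70% of reads in siXRN2 cells and 51.90% and 54.55% in siCTRL cells, a call lost without siXRN2 replicate 2 (0.0524). CLCN3, a chloride-proton exchanger, used its L site in 18.37% and 16.67% of reads in siXRN2 cells and 32.79% and 39.86% in siCTRL cells, also lost without that library (0.0708). In the cell-cycle list, the F site of CCNB1 took 80.26% and 75.80% in siXRN2 cells and 60.89% and 68.06% in siCTRL cells and lost its call without siCTRL replicate 1 or either siXRN2 library (up to 0.0717).

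**Figure D4:**
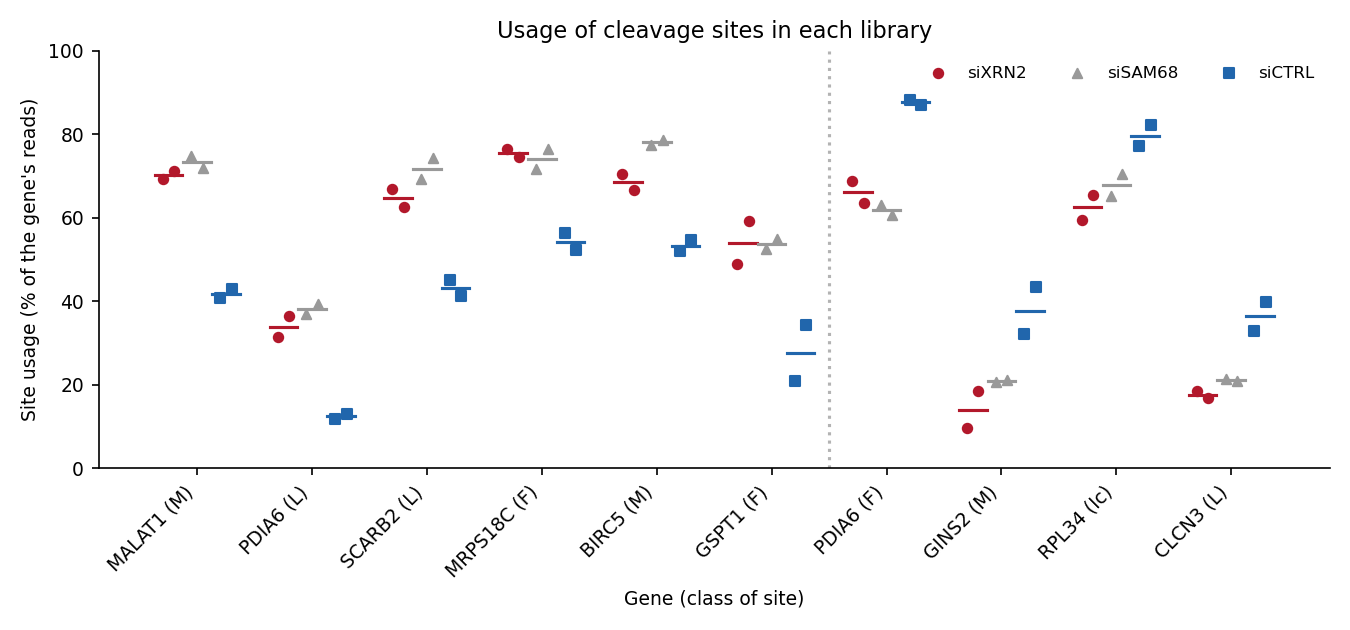
Points are the usage of single sites (% of the gene's reads) in single libraries, and bars are means of 2 libraries, for sites gained (left of the dotted line) and lost (right) in siXRN2 cells. The siXRN2 and siCTRL points do not overlap at any site shown, for example 31.31% and 36.40% against 11.75% and 12.97% at the PDIA6 L site.

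A single measure per gene, the log2 ratio of distal to proximal usage for the 2 most used sites of the 3′ UTR, was tested in 1110 genes. Of these, 168 passed (15.1%), 95 towards the distal and 73 towards the proximal site, and the median change was 0.39. The count fell to 1 without siXRN2 replicate 1, to 6 without siCTRL replicate 1 and to 19 without siXRN2 replicate 2. By spacing, called genes split into 28 distal and 29 proximal among the 370 pairs with the shortest spacing, 28 and 23 among the next 370, and 39 and 21 among the 370 with the longest spacing. Where the proximal site had AATAAA, 31 genes moved distally and 40 proximally, and with another or no signal 64 and 33.

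Among 119 genes with at least 50 reads, 71 passed over that subset (59.7%), 39 distally and 32 proximally, of which 25 passed under each omission. With p adjusted over all 1110 pairs, 4 of them passed, among them PDIA6 (1.78) and CHPT1 (2.04) towards the distal site and KIAA0101 (-1.67) towards the proximal site. CHPT1, a cholinephosphotransferase, has 2 sites only 46 bases apart. The F site took 1.87% and 1.67% of reads in siXRN2 cells and 11.11% and 7.37% in siCTRL cells. KIAA0101, the PCNA-associated factor PAF15, used its distal site in 5.04% and 3.63% of reads in siXRN2 cells and 14.62% and 12.19% in siCTRL cells. SRSF1, a splicing factor, had 1 of the larger ratio changes in the subset (2.35), with 69.70% and 85.28% at its distal site in siXRN2 cells and 26.58% and 57.73% in siCTRL cells. SRSF1 kept its call over the subset each time but did not pass over the whole table (adjusted p = 0.0576 in limma).

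**Figure D5:**
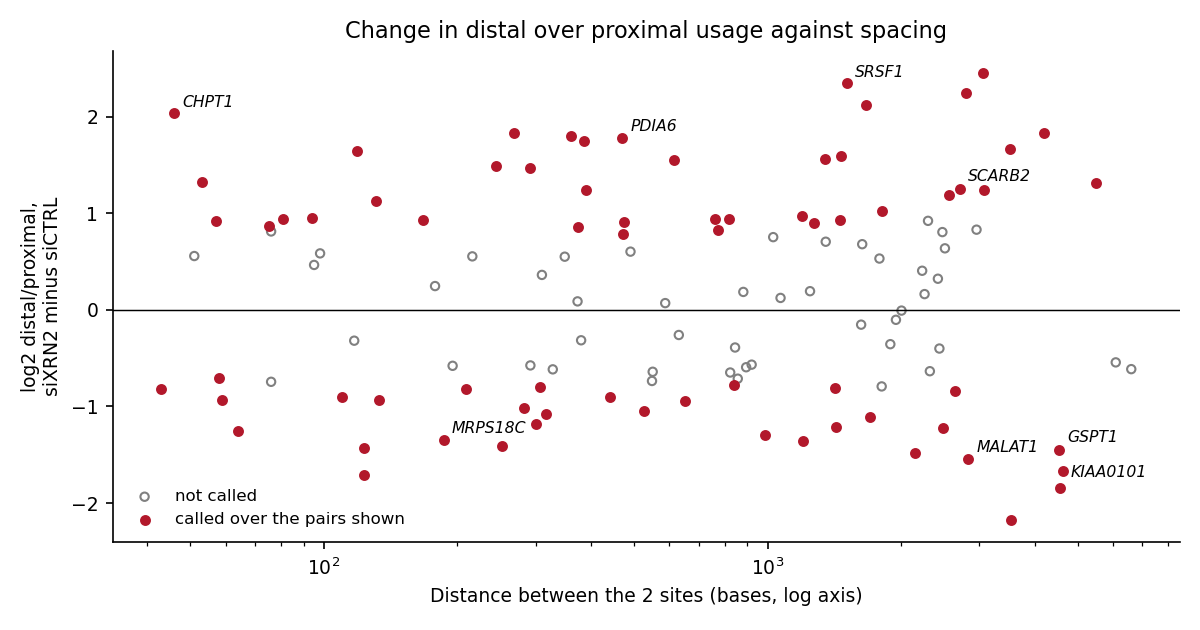
Each point is 1 of 119 genes with at least 50 reads; the horizontal axis is the spacing of its 2 sites (bases, log axis) and the vertical axis the change in the log2 ratio of distal to proximal usage, siXRN2 minus siCTRL. Filled points passed over these genes, 39 above and 32 below 0, and both kinds occur from short to long spacing.

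The change in the distal to proximal ratio was set beside the change in expression across genes, and no test of their relation was made. In 238 genes with both measures, Pearson's r between the ratio change and the expression change was 0.21 and Spearman's rho 0.18, and in the 119 genes with at least 50 reads r was -0.16 and rho -0.13. Both measures come from the same reads of the same libraries, and genes are not independent replicates. Of those 119 genes, 18 rose and 17 fell in expression. Of the 39 genes called distal in that subset, 4 rose and 8 fell in expression, and of the 32 called proximal, 9 rose and 3 fell. The difference between these counts was not tested.

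Sites upstream of the last exon took a smaller share of listed usage in siXRN2 cells at the median gene. The upstream share is the percentage of the usage at a gene's listed sites that fell on upstream sites. It need not be a share of all reads of the gene. The upstream share was tested in 400 genes, and 48 passed (12.0%), 14 higher and 34 lower, with a median change of -5.74 points. The groups did not overlap in 256 of the genes (64.0%). It was higher in siXRN2 cells in 37.4% of the genes. The count was 0 without siXRN2 replicate 1 and 1 without siXRN2 replicate 2, and on a log2 scale 26 genes were higher and 23 lower, so the lean of the calls depends on the scale. Many of the largest changes were between 0 and 100% in genes with few reads, such as ZC3H6, at 100% in both siXRN2 libraries and 0% in both siCTRL libraries. Only 21 of the genes had at least 50 reads in each library, with a median change of -7.06 points, and 1 of these 21 passed (4.76%). It was NAAA, an amidase of N-acylethanolamines, whose upstream share was 23.4% and 17.1% in siXRN2 cells and 39.3% and 37.8% in siCTRL cells (adjusted p = 0.0475 in limma). FOLH1, prostate-specific membrane antigen, had 44.0% and 47.0% in siXRN2 cells and 31.3% and 28.0% in siCTRL cells, which did not pass (0.0797). EIF3H, a translation initiation factor subunit, had 6.71% and 10.6% in siXRN2 cells and 22.2% and 16.1% in siCTRL cells, which did not pass either (0.115).

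Set directly against siSAM68 cells, siXRN2 cells differed at 0 of 4866 sites (0%; 642 at an unadjusted p under 0.05 in limma), in 4 of 1110 pairs (0.360%; 153 unadjusted) and in 3 of 400 upstream shares (0.750%; 63 unadjusted). The 4 pairs were those of EXD2, MARCKS, ZNF557 and ZNF566, and the 3 upstream shares included those of HS3ST1 and INTS8. The ZNF566 ratio and the HS3ST1 share also passed against siCTRL (adjusted p = 0.00556 and 0.046 in limma). Both were higher in siXRN2 cells in each contrast. Against siCTRL, the HS3ST1 share lost its call under each omission of 1 library. The ZNF566 ratio lost its call against siCTRL without siXRN2 replicate 1. In ZNF566 the proximal site was at 0 in both siXRN2 libraries, against 22.22% and 30.43% in siSAM68 cells and 22.22% and 20.00% in siCTRL cells. In INTS8, a subunit of the Integrator complex, the upstream share was 77.8% and 76.5% in siXRN2 cells, 18.2% and 0% in siSAM68 cells and 100% in both siCTRL libraries. None of the genes behind these 7 calls is in the gene table, so the depth behind their shares is unknown.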

How the data were processed

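Poly(A)-selected RNA of LNCaP cells was profiled by 3'READS in 6 libraries, 2 each of siXRN2, siSAM68 and siCTRL. Reads were processed with cutadapt and Bowtie2 on hg19, per the submitters' processing notes, with no versions or counting steps named there. A table of genes in RPM and a table of sites in percent usage were deposited by the authors. The authors also deposited log2 ratios, as control over knockdown, and a score that no source defines; at a size of 1.3 or more this score marked 427 of 1944 genes (22%) and 2329 of 4903 sites (47.5%) in the authors' deposited table for siXRN2, and it was not used further. RPM had been scaled per group. One read was worth 0.157, 0.2382 and 0.4916 RPM in siXRN2, siSAM68 and siCTRL libraries; 99.84% to 100% of low values were whole multiples within the rounding of 0.05 RPM, a wide tolerance at these steps, so depths are approximate and exact counts were not recovered. All columns of samples were used.

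Here every library was rescaled to a listed total of 344532.9 RPM. The test was limma 3.58.1 (R 4.3.3), fitted to all 6 libraries at once, on log2(RPM + 1) for genes averaging 1 RPM or more, on log2(percent + 1) for sites averaging 1% usage or more, on the log2 ratio of distal to proximal usage with a pseudocount of 1%, and on the upstream share in percent. The first 2 used a mean-variance trend. The upstream share was taken over the usage at a gene's listed sites only. The threshold was a Benjamini-Hochberg adjusted p of 0.05. With 2 libraries a group an exact permutation test cannot go below p = 0.333. The tests were tried on simulated data first. Genes named are the 15 largest rises and falls among called genes with groups that do not overlap, and up to 6 called list members by size of change. Further list members, the well-expressed genes and the sites and pairs of genes with 50 reads were named after their values were seen, mostly because their calls held with each library left out. The well-expressed genes (mean RPM of 100 or more) and the subset with at least 50 reads were defined after the data had been seen, and members and gene lists were chosen with earlier results of these data known. Same-numbered replicates did not deviate together (r = 0.002, 0.18 and 0.08 for the group pairs), so the numbers were not taken to pair samples. Python 3.11.15 and matplotlib 3.10.9 drew the figures. Results for some genes are not reported here.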

Additional observations from a re-analysis of the deposited data

How the results depend on the processing

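None of the single genes, sites, ratios and shares recomputed changed sign under the alternatives run for it; the split of upstream share calls did (14 higher and 34 lower, against 26 and 23 on a log2 scale), as did the list medians named below. For genes (642 called) a fit with no mean-variance trend gave 334, restriction to a mean RPM of 100 or more gave 320, and leaving out 1 library gave 180 to 715. For sites (252) the fit of siXRN2 and siCTRL alone gave 0, the fit with a replicate block 0, percent with no log 24, the arcsine square root 51, and leaving out 1 library 0 to 386. For distal to proximal ratios (168) the 2 groups alone gave 48, the replicate block 86, pseudocounts of 0.5% and 5% 89 and 295, and leaving out 1 library 1 to 163. For upstream shares (48) the 2 groups alone gave 8, the replicate block 27, and leaving out 1 library 0 to 51. In genes with at least 50 reads, sites (166) gave 44 with no mean-variance trend and 9 to 124 with 1 library left out, and ratios (71) gave 41 to 56. The cause of these shifts was not tested, and an omission also leaves fewer libraries in the fit.

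Of 265 gene results named or listed, 263 kept their call with the replicate block, 211 in the fit of the 2 groups alone and 249 under median-of-ratios scaling. The count test planned for recovered reads was not run, because whole reads could not be recovered for every library, and for ratios and upstream shares the fit with no trend is the reported one. Depth limits the site results: sites at 0 numbered 530 and 196 in the siXRN2 and 797 and 544 in the siCTRL libraries. Lists whose median changes sign with the scaling are those of spliceosome, mitochondrial ribosome, polymerase II, chromatin, cytoskeleton, ER stress, androgen-responsive and p53 genes.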
